A study of Mus musculus with 12 samples.

Results

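The replication-dependent histone genes encode the H1, H2A, H2B, H3 and H4 proteins that package newly made DNA. They were taken as all protein-coding genes of the GENCODE vM21 mouse annotation (GRCm38) whose symbol starts with Hist1h, Hist2h, Hist3h or Hist4h, which gave 67 of 21951 genes. Of these, 6 were H1, 18 H2A, 18 H2B, 12 H3 and 13 H4 genes, and 54 lay in the Hist1 group. Short reads on the sense strand of their 75 transcripts were compared between Argonaute immunoprecipitations (IPs), their inputs and Dicer-null cells.

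All 12 libraries came from mouse embryonic stem cells (ESCs) grown in serum and leukemia inhibitory factor on gelatin, and the RNA was gel-selected at 18 to 75 nt. The tagged IP (n = 2) was a FLAG antibody IP from TT-FHAgo2, a clonal line with a doxycycline-dependent, FLAG-HA tagged Ago2. The untagged IP (n = 2) was the same antibody IP from TT-Ago2, a clonal line whose Ago2 carries no tag, and served as the control IP. Tagged input (n = 2) and untagged input (n = 2) were RNA of the same lines without IP. Both lines were kept in 0.1 µg/mL doxycycline and induced at 2.5 µg/mL, and these 8 libraries were cloned by circularization, which does not depend on a 5' phosphate. A further 4 libraries of total small RNA were made by a ligation protocol that needs a 5' phosphate, with 1 library each from Dicer-null cells, TT-FHAgo2 at 2.5 µg/mL doxycycline (Ago2-induced), TT-FHAgo2 without doxycycline and wildtype cells. The last 4 have no replicate, and their intervals cover counting error only.

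As background, replication-dependent histone mRNAs are the metazoan mRNAs that end in a conserved stem-loop in place of a poly(A) tail. The stem-loop binding protein (Slbp) holds the stem-loop, the U7 snRNP with Lsm10 and Lsm11 places the cleavage a few nucleotides past it, and the exonuclease Eri1 trims the end. Decay at the end of S phase starts there, with uridines added to the 3' end, and the RNA downstream of the cleavage is degraded from its 5' end. Argonaute proteins, in contrast, carry microRNAs cut by Dicer.

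Depth was 14474875 to 30098249 reads in the 8 replicated libraries and 26542602 to 78762632 in the other 4. Reads from microRNA hairpins took 58.3 and 50.7% of the tagged IPs and 9.19 and 13.1% of the untagged IPs. Mir294, of the ESC-specific miR-290 cluster, had 4.13 CPM (reads scaled to a library total of 1000000) in Dicer-null cells, 1201 CPM in Ago2-induced cells, 20.2 CPM without doxycycline and 3410 CPM in wildtype cells. Of 9 fibroblast markers, the collagens Col1a2 and Col3a1 were at 0 and 8 had at most 0.113 CPM in any library. The other, Mir143, had 232.6 and 177.1 CPM in tagged IPs, 41.5 and 28.2 CPM in untagged IPs, 3.93 to 11.2 CPM in the inputs, 0.178 CPM in Dicer-null, 152.0 CPM in Ago2-induced, 2.45 CPM in no-doxycycline and 182.8 CPM in wildtype cells, and its part in the results was not tested. Dicer1 reads themselves were 1.56 CPM in Dicer-null cells and 1.67 CPM in wildtype cells, and the labels do not say which bases are deleted, so they check nothing. Of the 8 replicated libraries, those of replicate 1 had reads of up to 50 nt and those of replicate 2 up to 51 nt. Replicate number thus also goes with the longest read, and values of each library are given for that reason. Nothing in the labels says that replicates came from separate cultures, so a p-value here measures the spread between libraries, which may be technical.

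A total of 35881 distinct sequences of 18 nt or more matched a member exactly. Histone genes are close copies: a sequence was shared by up to 25 members, and joining all genes that share a sequence left 1 merged feature. That merged feature was tested for the whole family, and single genes were described by reads found in 1 annotated gene only, which were 67.2% of histone reads over the 8 libraries and were present for 63 of 67 genes.

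The stem-loop was searched on the sense strand as 16 nt, the 5' arm GGNNCT, the loop TTTN and the 3' arm AGNNCC without gaps. It was found in the annotated transcripts of 44 of 67 members (65.7%) and of 34 of 21884 other protein-coding genes (0.155%). Of the other 23 members, 11 are annotated as coding sequence only, and 2 hold the variant described further on. The most abundant reads at this place are printed because reads of this kind are most histone reads of the IPs, with the stem-loop in capitals and the last 30 nt where the read was longer. All end 3 nt past the stem-loop and lie in the 3' UTR.
H2B, Hist1h2bg, chr13:23571832-23571861, plus strand: cctaacccaaaGGCTCTTTTCAGAGCCacc
H2B, Hist1h2bf and Hist1h2bg, here Hist1h2bf at chr13:23573762-23573789, minus strand: taacccaaaGGCTCTTTTCAGAGCCacc
H2B, Hist1h2bk, chr13:22036291-22036318, plus strand: agcaccaaaGGCTCTTTTAAGAGCCact
H1, Hist1h1c, chr13:23739501-23739530, plus strand: acaatccaaaaGGCTCTTTTCAGAGCCacc
H2A, Hist2h2aa1 and Hist2h2aa2, here Hist2h2aa1 at chr3:96246027-96246050, plus strand: aaaaaGGCTCTTTTCAGAGCCacc
H3, Hist1h3e and Hist1h3f, here Hist1h3e at chr13:23561900-23561929, minus strand: taaaccaaaacGGCTCTTTTAAGAGCCacc
H4, Hist1h4m and Hist1h4n, here Hist1h4m at chr13:21812118-21812147, plus strand: tctcaactaaaGGCCCTTTTCAGGGCCatc
The Hist1h2bg read (40 nt, ending in the first line above) alone had 257 and 3117 reads in the tagged IPs, 2578 and 9741 in the untagged IPs, 20 and 19 in the tagged inputs and 24 and 10 in the untagged inputs. The 24-nt Hist2h2aa1 read had 30 and 63, 315 and 1321, 1 and 2, and 3 and 5 reads in the same order of groups. Both were most frequent in the untagged IPs.

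Histone reads were far more frequent in the untagged IP than in any other group. They made up 469 and 660 CPM in the tagged IPs and 5783 and 7246 CPM in the untagged IPs. The tagged inputs had 250 and 170 CPM, and the untagged inputs 226 and 218 CPM. In group means that was 564.5 ± 135.7 CPM in the tagged IP, 6515 ± 1035 CPM in the untagged IP, 209.7 ± 56.5 CPM in the tagged input and 222.1 ± 5.21 CPM in the untagged input (SD, n = 2 each). No IP library overlapped its input, and the IPs did not overlap each other. With 2 libraries against 2 the exact permutation test cannot go below p = 0.33, which each of these 3 pairs reached. By edgeR's quasi-likelihood test with Benjamini-Hochberg adjustment over 4584 features, the merged histone feature fell by 3.53 on the log2 scale in tagged against untagged IPs (SE 0.681, adjusted p = 1.185e-04).

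That drop has to be read against the other genes, because most moved the same way at this scaling. In tagged against untagged IPs 85.6% of all features were called lower and 0.611% higher, with a median log2 change of -2.49, so the histone feature lay 1.04 below the median. In untagged IPs against untagged inputs 78.9% were called higher, with a median of 2.33, and in tagged IPs against tagged inputs 1.07% were called higher, with a median of 0.08. With TMM scaling, which centres the genes, 174 features were higher and 10 lower in tagged against untagged IPs, in place of 28 and 3924, and the histone feature was no longer called (log2 change -1.22, adjusted p = 0.705). Against its own input the untagged IP held 4.87 more on the log2 scale (SE 0.726, adjusted p = 2.2e-08), 34th of 4584 features and 5.84-fold above the median gene. With TMM this call was lost too, at 2.77 (adjusted p = 0.268). Against its own input the tagged IP held 1.43 more on the log2 scale and was not called (SE 0.629, adjusted p = 0.470). It was called when libraries were scaled to reads outside microRNA hairpins, at 2.52 (adjusted p = 0.00325).

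Most histone reads of both IPs were reads that stop at the stem-loop. Reads whose last base lay 0 to 5 nt past the stem-loop made up 303 and 550 CPM in the tagged IPs and 4316 and 6465 CPM in the untagged IPs. They made up 71.5 and 67.9 CPM in the tagged inputs and 62.3 and 51.5 CPM in the untagged inputs. All other histone reads had 165 and 110 CPM in the tagged IPs, 1468 and 782 CPM in the untagged IPs, 178 and 102 CPM in the tagged inputs, and 163 and 167 CPM in the untagged inputs. Thus the tagged IPs did not overlap their inputs at the stem-loop but overlapped them elsewhere.

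**Figure D1:**
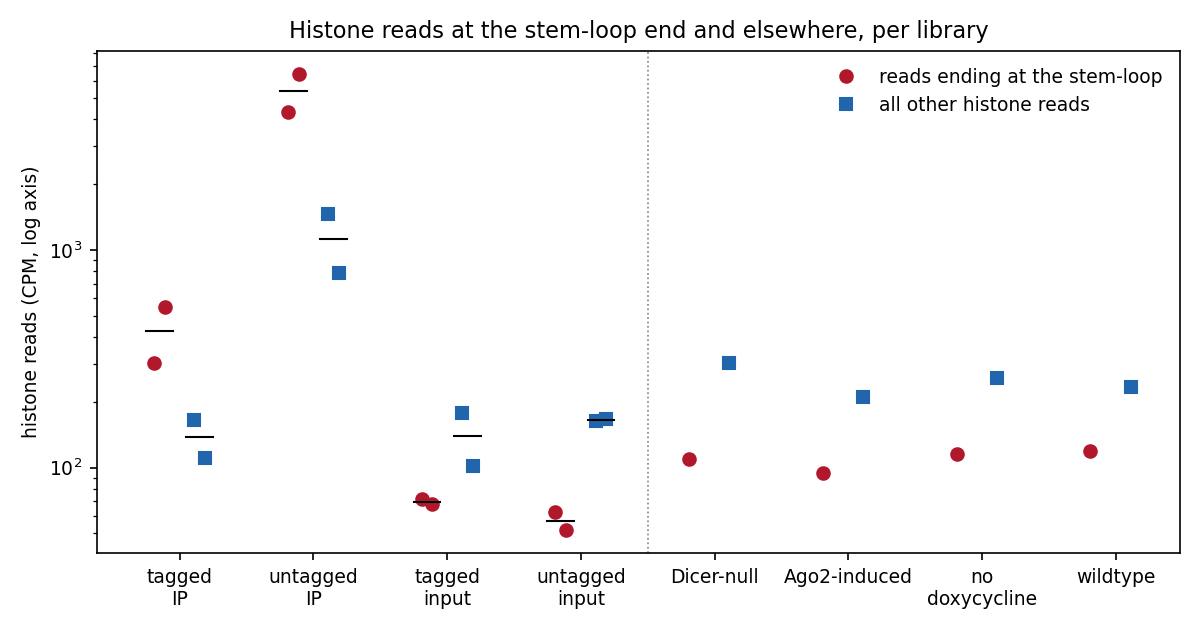
Histone reads per library in CPM (log axis), split into reads that end at the stem-loop (circles) and all other histone reads (squares), with black bars for means of groups of 2 libraries. In both IPs the stem-loop reads lie above the other reads (303 and 550 against 165 and 110 CPM in the tagged IPs), while in all inputs and in the 4 libraries right of the dotted line they lie below them.

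The division into these 2 sets was made after seeing the data, and it was fitted with all other features. The stem-loop reads were 2.61 higher on the log2 scale in tagged IPs than in tagged inputs (SE 0.676, adjusted p = 0.00741, edgeR), beside 1.09% of features called higher there, and 6.56 higher in untagged IPs than in untagged inputs (SE 0.811, adjusted p = 1.402e-12). The second value was 18.8-fold above the median of all features and 13th of 4585. The reads elsewhere did not differ between tagged IPs and inputs by the test (log2 change -0.02, SE 0.687, adjusted p = 1.0). In untagged IPs they were 2.77 higher than in inputs (SE 0.734, adjusted p = 0.00275), 0.44 above the median of all features. Between tagged and untagged IPs the stem-loop reads fell by 3.66 and the reads elsewhere by 3.03 (adjusted p = 1.193e-04 and 0.00123). Both of these calls were lost with TMM (-1.36 and -0.63) and with DESeq2 (-1.50 and -0.77), and that of the reads elsewhere also without tagged IP replicate 2 (-2.77, adjusted p = 0.183). In untagged IPs over inputs the reads elsewhere lost their call with TMM too (0.41, adjusted p = 0.869). With TMM scaling the stem-loop call remained in untagged IPs (log2 change 4.52, adjusted p = 0.031), but it was lost in tagged IPs (2.62, adjusted p = 0.235), and it was also lost without tagged IP replicate 2 (2.12, adjusted p = 0.304), either tagged input replicate (2.65 and 2.58) or untagged IP replicate 2 (2.61, adjusted p = 0.0519).

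Most reads at the stem-loop ended at the same nucleotide. Of histone reads of up to 46 nt, 68.3 and 82.8% ended at the stem-loop in the tagged IPs, against 81.2 and 89.3% in the untagged IPs, 27.0 and 35.7% in the tagged inputs and 26.5 and 22.7% in the untagged inputs. In the ligated libraries, where the limit was 36 nt, the share was 26.2% in Dicer-null, 30% in Ago2-induced, 31.3% in no-doxycycline and 33.0% in wildtype cells. From 84.8 to 91.5% of these reads ended exactly 3 nt past the stem-loop. In tagged IP replicate 1, for example, 3899 reads ended at 3 nt, 136 at 2 nt, 171 at 4 nt and 51 at 5 nt.

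**Figure D2:**
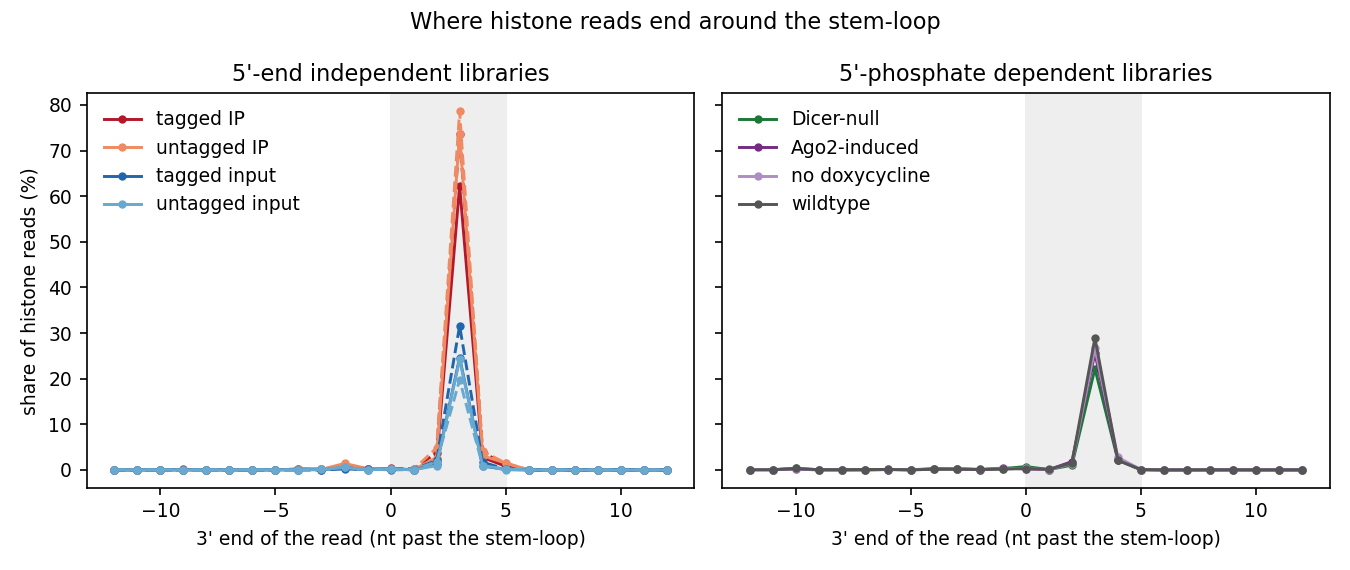
Share of histone reads (%) by the position of their 3' end in nt past the last base of the stem-loop, for the 8 libraries that take any 5' end (left; solid, replicate 1; dashed, replicate 2) and the 4 that need a 5' phosphate (right). The grey band marks 0 to 5 nt, and every library has its peak at 3 nt, with 62.3% in tagged IP replicate 1 and 78.6% in untagged IP replicate 2.

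A base that the transcript does not hold often stood in place of the third nucleotide. Reads that matched up to 2 nt past the stem-loop and then had 1 differing base numbered 657 and 3127 in the tagged IPs and 9963 and 23744 in the untagged IPs. The base was T (uridine in the RNA) in 94.8 and 92.8% of them in the tagged IPs and in 93.5 and 93.4% in the untagged IPs. In the tagged inputs T took 97.4 and 95.3%, and in the untagged inputs 96.0 and 98.0%. In the ligated libraries T took 90.5% in Dicer-null, 90.7% in Ago2-induced, 90.3% in no-doxycycline and 85.1% in wildtype cells. A base equal to the transcript's own cannot be counted as differing, which bears on these shares: of 30 genes with at least 20 such reads over the 8 replicated libraries, 23 have C as their own base there, 5 have T, 1 has A and 1 has G. T was the majority in the 25 genes whose own base is not T. In the 5 whose own base is T, among them Hist1h2bh and Hist1h1t, C made up 808 of 865 such reads. Hist1h3c, an H3 gene, had 4715 reads with T against 1295 with the base of the transcript, while Hist1h2bg, an H2B gene, had 7102 against 34568. The most frequent such read is shown with the differing base in capitals.
Hist1h3c, with the added base at its 3' end: aaaaggctcttttaagagccacT
It had 30 and 117 reads in the tagged IPs, 694 and 2769 in the untagged IPs, 3 and 10 in the tagged inputs and 8 and 15 in the untagged inputs. For 21 members neither the stem-loop nor the variant was found in the annotated transcripts. Whether some of these reads come from another histone gene was therefore not tested. Over the whole family, reads with an added T at any 3' end were 13.4 and 17.0% in tagged IPs, 12.9 and 17.8% in untagged IPs, 10.3 and 19.7% in tagged inputs and 11.3 and 19.0% in untagged inputs. The replicate 2 library was the higher one in each group, and the groups overlapped (exact permutation p = 1.0 for each of the 3 pairs). That share is over all histone reads, also those that do not reach the stem-loop end. Of reads ending 2 or 3 nt past the stem-loop, added bases included, an added T took 13.3 and 17.8% in tagged IPs. It took 13.2 and 17.8% in untagged IPs, 24.3 and 35.9% in tagged inputs and 26.0 and 44.8% in untagged inputs. By this share the IPs lay below their inputs without overlap, and it was not tested.

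The start of the transcript took a smaller share of histone reads in the IPs than in the inputs. Reads with a 5' end in the first 200 nt made up 7.22 and 3.63% of the histone reads that fell in 1 region in the tagged IPs, 4.32 and 3.13% in the untagged IPs, 30.1 and 25% in the tagged inputs and 31.4 and 42.3% in the untagged inputs. The IPs did not overlap their inputs (exact permutation p = 0.33, the smallest possible). Reads in the last 60 nt took 7.65 and 6.63% in tagged IPs, 10.3 and 11.0% in untagged IPs, 4.11 and 8.34% in tagged inputs and 4.31 and 5.93% in untagged inputs, with an overlap between tagged IPs and their inputs. The body, between the first 200 and the last 60 nt, holds the stem-loop of the 23 members annotated for more than 60 nt past it. Reads were placed by their 5' end. A read that starts in the body and ends at a stem-loop within the last 60 nt thus also counts as body. In untagged IPs against inputs the first 200 nt rose by 1.60, the body by 5.50 and the last 60 nt by 6.01 on the log2 scale (adjusted p = 0.0492, 1.211e-09 and 8.588e-08), beside 81.9% of regions called higher and a median of 2.61. The first 200 nt thus lay 1.0 below the median region and the last 60 nt 3.40 above it. The call of the first 200 nt was lost whichever of the 8 libraries was left out (1.43 to 1.81), and with TMM the value turned to -0.91 (adjusted p = 0.586). With TMM the body also lost its call (3.15, adjusted p = 0.159), and the last 60 nt kept it (3.60, adjusted p = 0.00583). In tagged IPs against inputs no histone region was called, with -0.85 for the first 200 nt, 2.02 for the body and 1.89 for the last 60 nt (adjusted p = 1.0, 0.102 and 0.376), beside 0.75% of regions called higher. With a replicate block, which sets each library against the same-numbered ones, the last 60 nt were called (1.89, adjusted p = 0.00579). All 3 regions fell in tagged against untagged IPs, by 2.95, 3.39 and 4.03 (adjusted p = 0.00345, 2.608e-04 and 3.102e-04), beside 86.8% called lower. With TMM none of the 3 was called (-0.55, -0.92 and -1.62), and without tagged IP replicate 2 none was either (-2.75, -3.74 and -4.22, adjusted p = 0.233, 0.194 and 0.233).

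Regions were also tested gene by gene. In untagged IPs against inputs 18 of 35 genes tested were higher in their first 200 nt (median 1.88), 39 of 41 in the body (median 5.05) and 14 of 14 in the last 60 nt (median 5.50), beside 82.2% of all gene regions and a median of 2.62. In tagged IPs against inputs 0 of 35, 6 of 41 and 1 of 14 were higher, beside 0.91% of gene regions. Against untagged IPs, 35 of 35, 39 of 41 and 14 of 14 were lower in tagged IPs, beside 87.2% of gene regions.

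H2B led the classes in the IPs. H2B reads took 48.3 and 63.4% of histone reads in the tagged IPs and 56.7 and 64.2% in the untagged IPs. They took 27.5 and 24.3% in the tagged inputs and 25.4 and 23.8% in the untagged inputs. H4 reads had the opposite order, with 6.60 and 5.45% in tagged IPs, 4.18 and 4.73% in untagged IPs, 24.5 and 28.1% in tagged inputs and 24.9 and 23.5% in untagged inputs. Neither class overlapped between IP and input. In CPM, H2B had 226 and 419 in tagged IPs against 68.7 and 41.3 in tagged inputs, and H4 had 30.9 and 36 against 61.1 and 47.7.

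Tested as features, with 1.11% of features called higher, H2B was the class called in tagged IPs against tagged inputs (log2 change 2.55, SE 0.599, adjusted p = 0.00199, edgeR), together with the reads that several classes share (2.66, adjusted p = 0.0137). H1 was at 1.32, H2A at 0.86, H3 at 0.76 and H4 at -0.70, none called, with adjusted p of 0.715 to 1.0. The H4 value turned to 0.40 when libraries were scaled to reads outside microRNA hairpins. In untagged IPs against untagged inputs all 5 classes rose, by 6.18 for H2B, 4.58 for H1, 3.93 for H2A, 3.65 for H3 and 2.44 for H4, beside a median of 2.33 and 78.9% of features called higher. H4 was thus 0.11 above the median of all features, while H2B was 3.85 above it. In tagged against untagged IPs all 5 fell, by 3.62 for H2B, 3.30 for H2A, 3.28 for H1, 3.12 for H4 and 3.03 for H3. With TMM scaling H2B was the class still called in untagged IPs against inputs (4.11, adjusted p = 0.0467), and no class was called in tagged IPs against inputs (H2B 2.66, adjusted p = 0.217) or between the IPs (-1.30 for H2B).

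By reads of their own, 50 of 67 genes had enough reads to be tested. In tagged against untagged IPs 48 of the 50 were called lower (96%), beside 85.8% of all genes (0.604% were higher), with a median of -3.42 against -2.49 for all genes. Under TMM scaling Hist2h2ac was called lower and Hist1h3g higher and no other histone gene. Of all 4633 genes, 8 were lower and 171 higher with that scaling. Without tagged IP replicate 2, which leaves 1 library in that group, most calls were lost, of histone genes and of all genes. The medians were then -3.424 and -2.095. The lowest values were those of 3 H2B genes, Hist3h2ba at -4.29, Hist1h2be at -4.24 and Hist1h2bj at -4.14, and the highest of the called genes were Hist1h4b at -2.08, Hist1h3e at -2.28 and Hist1h3h at -2.36. Under TMM these last 3 stood at 0.20, 0.23 and 0.12. Against their inputs the untagged IPs had 43 of 50 genes higher (86%), beside 79.1% of all genes, with a median of 3.70 against 2.33. Under TMM 20 of the 50 were higher, and the H4 genes Hist4h4 and Hist1h4a were lower. Of all 4633 genes, 36 were higher and 108 lower under TMM in this comparison. Without untagged input replicate 1 or 2, which leaves 1 library in that group, fewer histone genes were called, and fewer of all genes too. The medians of the histone genes were then 4.163 and 3.451, beside 2.564 and 2.078 over all genes. In tagged IPs against inputs 8 of 50 were higher (16%), beside 1.25% of all genes, and none was lower, beside 1.06%. With the replicate block 14 were called higher and 2 lower in this comparison, beside 171 higher and 113 lower of all 4633 genes. Leaving out either tagged IP replicate or tagged input replicate 1 left 3 calls, leaving out tagged input replicate 2 left 1, and leaving out either untagged input replicate left 5. Hist1h2bg was called in each of the first 4 of these.

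**Figure D3:**
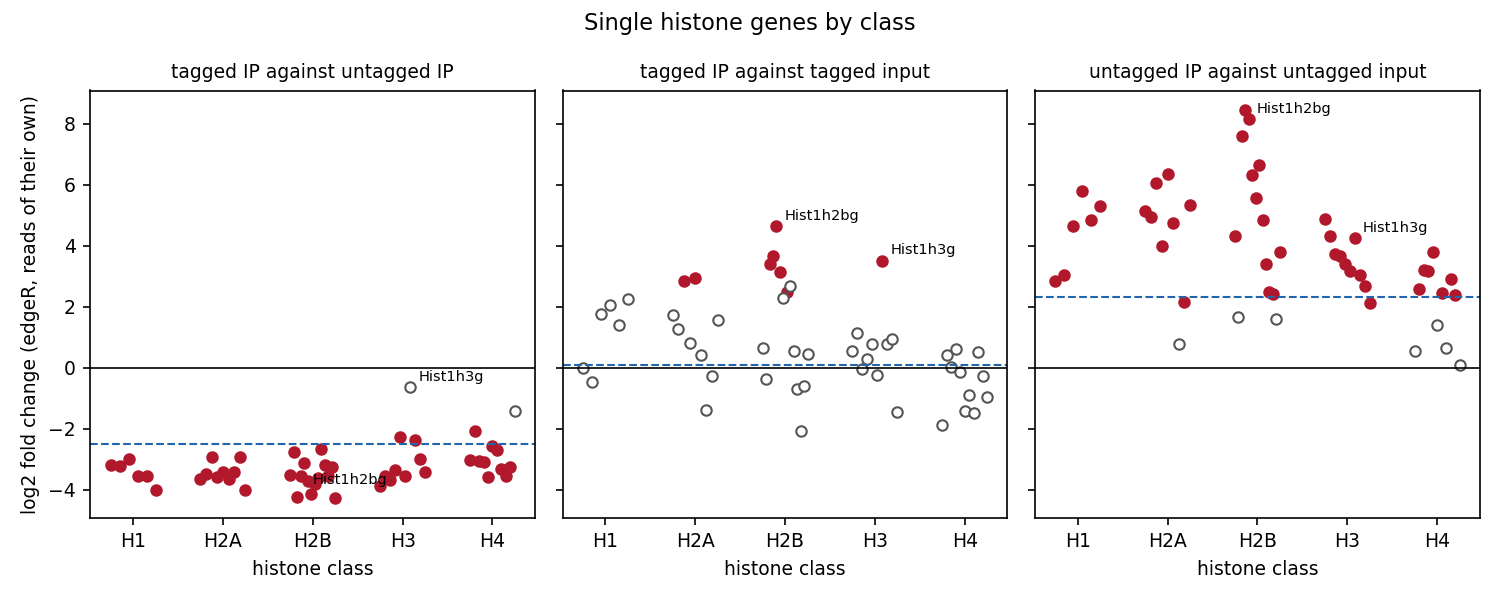
Log2 fold changes (edgeR, reads of their own) of 50 histone genes by class, in tagged IPs against untagged IPs (left), tagged IPs against tagged inputs (middle) and untagged IPs against untagged inputs (right). Filled points passed an adjusted p of 0.05 and the dashed line is the median of all genes (-2.49, 0.08 and 2.33), and Hist1h3g at -0.64 is the uppermost point of the left panel.

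Whether the gain of IP over input differed between the 2 lines was tested as an interaction, with the tagged line set against the untagged line. The gain of the merged histone feature was 3.45 lower on the log2 scale (log2 difference -3.45, SE 0.897, adjusted p = 0.0388, edgeR), beside 0.982% of features called lower and a median of -2.29. The reads at the stem-loop stood at -3.95 (adjusted p = 0.0239), beside 0.851% of features, and the reads elsewhere at -2.79 (adjusted p = 0.0735), which were called with the replicate block (-2.68, adjusted p = 0.00442). Of the classes H2B was called (-3.63, adjusted p = 0.0128), beside 1.05% of features, while H1, H2A, H3 and H4 were at -3.26, -3.07, -2.89 and -3.14 and were not called. No region was called, with -2.45, -3.47 and -4.12 for the first 200 nt, the body and the last 60 nt, beside 0.155% of regions, whereas with the replicate block all 3 were (-2.42, -3.47 and -4.11, adjusted p = 7.439e-04, 0.0015 and 1.875e-06). Of single genes 9 of 50 were called lower (18%), beside 1.6% of all genes, with a median of -3.20 against -2.30. With the replicate block the count was 44, beside 2817 of 4633 of all genes. In the fit with the merged feature the block called 2776 of 4584 features lower. With TMM scaling 0 of 50 were called, beside 0 lower and 21 higher of all 4633 genes. The merged feature was then at -1.30 (adjusted p = 0.922).

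Of the 8 genes that were higher in tagged IPs than in tagged inputs, 5 encode H2B, 2 H2A and 1 H3. Hist1h2bg, the most abundant member, had 44.7 and 199 CPM in the tagged IPs, 453 and 1670 CPM in the untagged IPs, 6.15 and 3.66 CPM in the tagged inputs and 5.16 and 2.28 CPM in the untagged inputs. Its 2 IP replicates differed several-fold in both lines, and replicate 2 was higher in both. Its log2 change was 4.63 against tagged input (SE 0.775, adjusted p = 8.2e-07), 8.15 in untagged IP against untagged input (SE 0.909, adjusted p = 1.54e-15) and -3.12 between the IPs (SE 0.719, adjusted p = 6.54e-04). Hist1h2bf, a neighbouring H2B gene, had 12 and 11.5 CPM in tagged IPs, 131 and 144 CPM in untagged IPs, 1.54 and 0.323 CPM in tagged inputs and 0.420 and 0.345 CPM in untagged inputs. It showed the largest change of untagged IP over untagged input, 8.46 (SE 1.03). Hist1h2be rose by 3.39 and Hist1h2bh by 3.14 in tagged IPs over tagged inputs.

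Hist1h2bk, the second most abundant member, had 72.1 and 76.9 CPM in tagged IPs, 1190 and 918 CPM in untagged IPs, 14.7 and 12.1 CPM in tagged inputs and 12.8 and 8.43 CPM in untagged inputs. Its replicates lay close together in each group. It rose by 2.47 in tagged IPs over inputs (adjusted p = 0.0224) and by 6.63 in untagged IPs over inputs (adjusted p = 4.93e-12). Hist1h2bj, with 10.2 and 9.80 CPM in tagged IPs and 169 and 183 CPM in untagged IPs, was at 2.27 over tagged input and was not called (adjusted p = 0.118). Hist1h2br had at most 2.54 CPM in any of the 8 libraries.

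Among the H2A genes, Hist1h2ad had 10.3 and 19.1 CPM in tagged IPs, 113 and 114 CPM in untagged IPs, 2.88 and 1.24 CPM in tagged inputs and 2.58 and 0.760 CPM in untagged inputs. It rose by 2.84 in tagged IPs over inputs and by 6.07 in untagged IPs over inputs (adjusted p = 0.0190 and 1.77e-08). Hist1h2ag rose by 2.95 and 6.34. Hist2h2aa1, with 2.13 and 1.03 CPM in tagged IPs and 9.71 and 14.1 CPM in untagged IPs, was among the lowest called in untagged IPs over inputs, at 2.15 (adjusted p = 0.0163), below the median of all genes. Over the 8 libraries 0% of its own reads ended at the stem-loop. The read printed above for that place is shared with Hist2h2aa2 and so is not counted here.

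Among the linker histone genes, Hist1h1d had 26.2 and 35.8 CPM in tagged IPs, 497 and 229 CPM in untagged IPs, 8.69 and 6.19 CPM in tagged inputs and 5.28 and 7.81 CPM in untagged inputs. It rose by 5.79 in untagged IPs over inputs (adjusted p = 9.41e-09) and was at 2.06 in tagged IPs over inputs, not called (adjusted p = 0.160). Its annotated transcript holds simple repeats, and reads of only 2 kinds of base made up 91 of 543 and 129 of 1236 of its reads in tagged IPs, 37 of 8854 and 40 of 4223 in untagged IPs, 49 of 188 and 73 of 198 in tagged inputs, and 51 of 143 and 64 of 180 in untagged inputs. Such reads can come from many places in the genome. Over all histone reads their share was 0.0485 to 2.78%. Hist1h1c and Hist1h1e were at 1.76 and 1.41 in tagged IPs over inputs, not called, and rose by 4.64 and 4.85 in untagged IPs over inputs.

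Among the H3 and H4 genes the values were lower. Hist1h3b, the most abundant H3 gene, had 4.56 and 5.05 CPM in tagged IPs, 74.3 and 38.8 CPM in untagged IPs, 3.08 and 1.35 CPM in tagged inputs and 4.26 and 1.38 CPM in untagged inputs. Hist1h4c, the most abundant H4 gene, had 3.65 and 5.95 CPM in tagged IPs, 28.7 and 51.2 CPM in untagged IPs, 5.15 and 4.25 CPM in tagged inputs and 3.54 and 5.18 CPM in untagged inputs. In tagged IPs over inputs Hist1h3b was at 1.12 and Hist1h4c at 0.03, neither called. In untagged IPs over inputs they rose by 4.32 and 3.19. Hist2h3c2 at 2.12 and Hist2h4 at 2.39 were the other lowest called genes there, and Hist4h4, an H4 gene outside the large cluster, was at 0.07 (adjusted p = 0.929). Of their own reads over the 8 libraries, 0% ended at the stem-loop for Hist2h3c2, 37.5% for Hist2h4 and 10.2% for Hist4h4. Stem-loop reads shared with another gene are not counted in these shares.

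Hist1h3g, an H3 gene, had the least negative value of the 50 genes between the IPs. It had 24.4 and 16.7 CPM in the tagged IPs, 37.2 and 26.9 CPM in the untagged IPs, 2.47 and 1.13 CPM in the tagged inputs and 1.98 and 1.38 CPM in the untagged inputs. The 2 IPs lay close to each other, without overlap, and both lay far above their inputs. Its log2 change in tagged against untagged IPs was -0.64 (SE 0.755, adjusted p = 0.405, edgeR), which is 1.85 above the median of all genes. Under TMM scaling it was called higher in tagged IPs, at 1.69 (adjusted p = 0.0433), and DESeq2 gave 1.54 (adjusted p = 0.0474). With scaling to reads outside microRNA hairpins it was at 0.36, not called. Against tagged input it rose by 3.51 (SE 0.843, adjusted p = 0.00248), and against untagged input the untagged IP rose by 4.25 (SE 0.871, adjusted p = 1.5e-04). The difference between these 2 gains was -0.73 (SE 1.10, adjusted p = 0.550), beside a median of -2.30 over all genes.

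Its stem-loop was also a different one, which was found after seeing these values. The searched motif was absent, and a variant with the same arms and the loop TCTN was found in 2 of 67 members, Hist1h3g and the H4 gene Hist1h4a, and in 51 of 21884 other protein-coding genes (0.233%). Both are shown with the variant in capitals.
H3, Hist1h3g, chr13:23535878-23535907, plus strand: accactttaaaGGCTCTTCTTAGAGCCacc
H4, Hist1h4a, chr13:23760796-23760825, minus strand: tctaaccaaaGGCCCTTCTCAGGGCCgccc
Reads that end 0 to 5 nt past the variant had 22.9 and 15.6 CPM for Hist1h3g in the tagged IPs, 30.3 and 22.7 CPM in the untagged IPs, 1.07 and 0.215 CPM in the tagged inputs and 0.540 and 0.415 CPM in the untagged inputs. The other Hist1h3g reads had 1.52 and 1.13 CPM in tagged IPs, 6.95 and 4.17 CPM in untagged IPs, 1.4 and 0.915 CPM in tagged inputs and 1.44 and 0.967 CPM in untagged inputs. Reads at the variant end were thus most of the reads of this gene in the IPs. The single 40-nt read whose last 30 nt are printed above had 81 and 69 reads in the tagged IPs, 31 and 19 in the untagged IPs, 3 and 1 in the tagged inputs and 1 and 0 in the untagged inputs. This sequence was more frequent in the tagged than in the untagged IPs, the reverse of the printed Hist1h2bg read. The most frequent Hist1h3g read of up to 30 nt at the variant end, of 27 nt, went the other way. It had 14 and 15 reads in the tagged IPs and 34 and 21 in the untagged IPs.

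Hist1h4a, which holds the same variant, was lower in tagged IPs, with no overlap of the groups. Its reads at the variant end had 0.609 and 0.366 CPM in the tagged IPs, 5.76 and 3.57 CPM in the untagged IPs, 0.869 and 0.538 CPM in the tagged inputs and 1.02 and 0.898 CPM in the untagged inputs. By all its own reads it fell by 3.01 in tagged against untagged IPs (adjusted p = 0.00246, edgeR). The median of all genes was -2.49, and 85.8% of them were called lower. That call of Hist1h4a was lost with TMM (-0.70, adjusted p = 0.574) and with DESeq2 (-0.84, adjusted p = 0.783). It was also lost with totals outside microRNA hairpins (-2.03, adjusted p = 0.123, edgeR). Counting the variant ends as stem-loop ends changed no call for the stem-loop set.

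**Figure D4:**
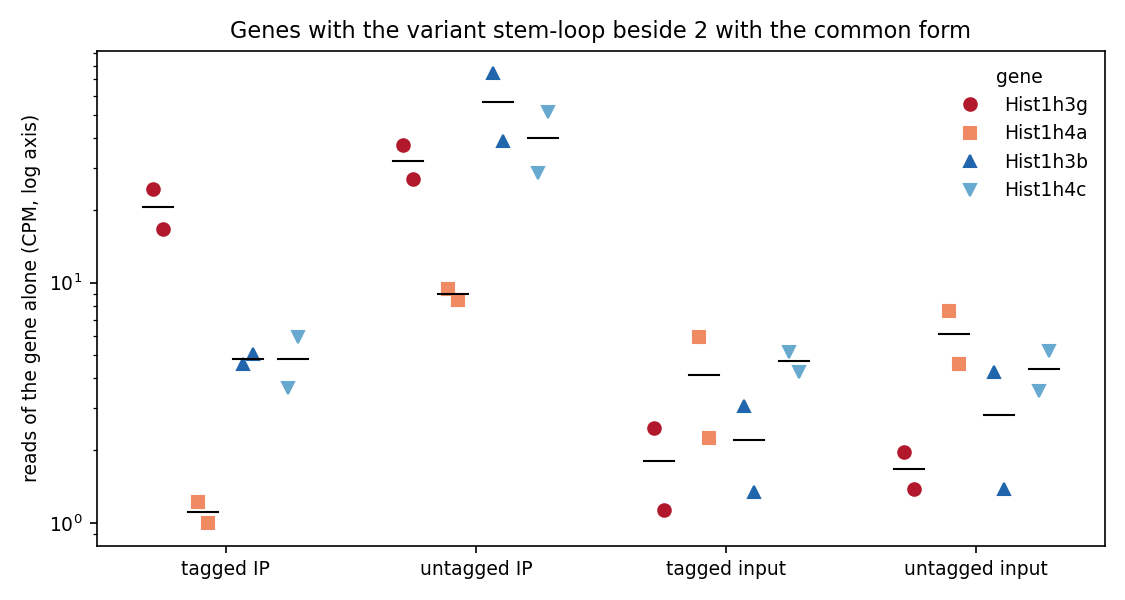
Reads found in 1 gene only (CPM, log axis) for the 2 genes with the variant stem-loop, Hist1h3g and Hist1h4a, and for the most abundant H3 and H4 genes with the common form, Hist1h3b and Hist1h4c; points are libraries and bars are means of 2. Hist1h3g is at 24.4 and 16.7 CPM in tagged IPs beside 37.2 and 26.9 CPM in untagged IPs, while the other 3 genes lie at 5.95 CPM or less in tagged IPs.

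Histone reads were also present without Dicer. They had 413 CPM in Dicer-null cells, 307 CPM in Ago2-induced cells, 374 CPM without doxycycline and 353 CPM in wildtype cells. The ratio of Dicer-null over wildtype was 1.17 (95% interval 1.15 to 1.20, counting error only), below the median of 1.68 over 3879 genes with at least 100 reads in the pair. The Dicer-null library holds far fewer microRNA reads, 1.42% from hairpins against 21.1% in wildtype, which moves the CPM of all other genes. Scaled to reads outside microRNA hairpins the direction turned, with 418.8 CPM in Dicer-null and 446.9 CPM in wildtype cells (ratio 0.937, 0.917 to 0.957), beside a median of 1.35 over all genes. Reads at the stem-loop end had 110 and 119 CPM in Dicer-null and wildtype cells, a ratio of 0.925 (0.890 to 0.961), and reads elsewhere 303 and 234 CPM, a ratio of 1.3 (1.26 to 1.33). Ago2-induced over no doxycycline gave 0.820 (0.796 to 0.844) for all histone reads, beside a median of 0.842 over 1572 genes. The stem-loop reads stood at 0.812 and the reads elsewhere at 0.823 in that pair. No doxycycline over wildtype gave 1.06 (1.03 to 1.09), beside a median of 1.42 over 1600 genes. Outside hairpins this ratio turned to 0.848 (0.825 to 0.871), beside a median of 1.14.

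Few single histone genes passed 2-fold in these pairs. In Dicer-null over wildtype the 39 histone genes with at least 100 reads had a median ratio of 1.20, with 1 higher than 2-fold and 1 lower, beside 31.7 and 0.49% of all genes. The higher was Hist2h2aa1, at 1.75 CPM in Dicer-null and 0.806 CPM in wildtype cells (ratio 2.17), and the lower was Hist1h1e, at 1.88 and 4.87 CPM (ratio 0.386). In Ago2-induced over no doxycycline none of 30 genes passed 2-fold, with ratios of 0.517 for Hist1h2bj to 1.52 for Hist1h1e, beside 0.636% higher and 4.9% lower of all genes. In no doxycycline over wildtype 3 of 33 were lower, Hist1h1e (ratio 0.341), Hist1h1c (0.473) and Hist2h3c2 (0.492), and none was higher, beside 18.5% higher and 1.56% lower of all genes. Of the Hist1h1c reads, 133 of 231 without doxycycline and 482 of 593 in wildtype cells were of the kind described next, which starts past the stem-loop. Without them Hist1h1c had 3.69 CPM without doxycycline and 3.44 CPM in wildtype cells, and Hist1h1e 1.51 and 3.01 CPM. There is 1 library of each kind, so line, treatment and library cannot be told apart.

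The ligated libraries held a further kind of histone read, found after seeing the data, that starts past the stem-loop. Reads whose 5' end lay 1 to 60 nt past it were 13.5% of histone reads in Dicer-null cells (95% exact interval 13.2 to 13.9%), 12.9% in Ago2-induced cells (12.2 to 13.7%), 11.1% without doxycycline (10.5 to 11.7%) and 17.3% in wildtype cells (16.6 to 18.0%). In the other libraries the share was 0.468 and 0.453% in tagged IPs, 0.0801 and 0.0674% in untagged IPs, 1.90 and 2.25% in tagged inputs and 1.67 and 1.39% in untagged inputs. In CPM the 4 ligated libraries had 55.8, 39.7, 41.5 and 61.1 in the same order, and the 8 others 2.19 to 4.88. The sets did not overlap. The cloning protocol, the longest read and the code in the titles all differ between the 2 sets of libraries and cannot be told apart.

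The reads past the stem-loop started most often at the same place. In each of the 4 ligated libraries the commonest start was 9 nt past the stem-loop, with 1126 reads in Dicer-null, 321 in Ago2-induced, 271 in no-doxycycline and 428 in wildtype cells. Starts of 8 to 14 nt took 63.7 to 69.7% of these reads. Their median length was 27 nt. Hist4h4 gave the most, with 1739, 554, 511 and 831 reads in the 4 libraries in that order, of 3702 over all 12. Hist1h1c followed with 911, 143, 133 and 482 reads, and Hist1h3g with 429, 100, 111 and 141. The most frequent reads of up to 30 nt of these 3 genes are shown because they lie beyond the mature 3' end.
Hist4h4, from 9 nt past, chr6:136803962-136803989, minus strand: atcagaaaggagctgtggacatttgtag
Hist1h1c, from 12 nt past, chr13:23739539-23739560, plus strand: ttaagagctgtgacatttgtgt
Hist1h3g, from 9 nt past, chr13:23535913-23535939, plus strand: tccaaaaaaagaactgtagcgcttttt
The Hist4h4 read had 209 reads in Dicer-null, 78 in Ago2-induced, 56 in no-doxycycline and 87 in wildtype cells, and 2 over the 8 other libraries. Such reads can be seen only for genes annotated past the stem-loop, by at least 20 nt for 43 genes and by at least 60 nt for 24.

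**Figure D5:**
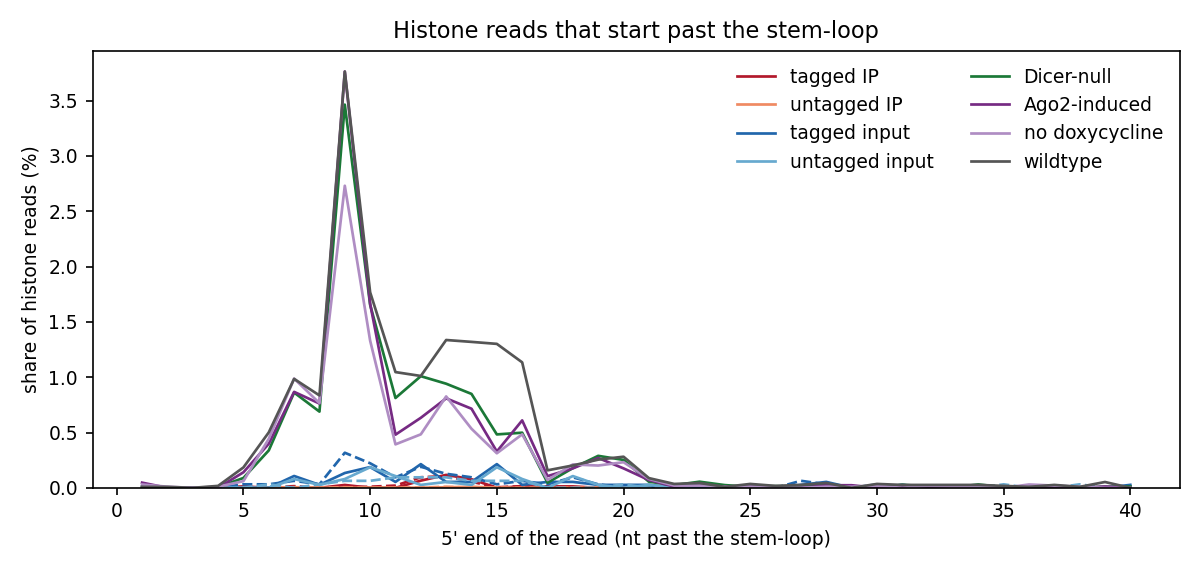
Share of histone reads (%) by the position of their 5' end in nt past the stem-loop, up to 40 nt, for the 12 libraries (solid, replicate 1 or the only library; dashed, replicate 2 of a group of 2). The 4 libraries that need a 5' phosphate peak at 9 nt, and the other 8 stay near 0 throughout.

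Few histone reads of the IPs had the size of a microRNA. Reads of 20 to 24 nt made up 9.95 and 8.49% of histone reads in tagged IPs, 8.61 and 14.4% in untagged IPs, 23.3 and 24.1% in tagged inputs and 22.8 and 35.4% in untagged inputs. They took 17.8% in Dicer-null, 17.8% in Ago2-induced, 16.2% in no-doxycycline and 17.9% in wildtype cells. The IPs lay below their inputs without overlap (exact permutation p = 0.33, the smallest possible) and overlapped each other. The first base was A in 67 and 70.3% of histone reads in tagged IPs, 74.4 and 72.6% in untagged IPs, 55.2 and 38.0% in tagged inputs and 55.1 and 49.9% in untagged inputs, and in 29.7 to 32.2% in the ligated libraries. The first base was T in 17.4 and 18.8% in tagged IPs, 12.1 and 17.8% in untagged IPs, 17.8 and 39.6% in tagged inputs and 18.9 and 25.2% in untagged inputs, with an overlap between tagged IPs and tagged inputs. In tagged IPs 18.7 and 14.3% of histone reads were longer than 46 nt, the limit set for 3' ends. These were left out of the shares of 3' ends, but not of the levels and fits of stem-loop reads and reads elsewhere.

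A 22-nt read from the H2A coding sequence, the most frequent coding read of up to 30 nt in the first 200 nt of that class, was more frequent in tagged than in untagged IPs.
H2A, shared by several H2A genes, here Hist1h2ab at chr13:23751187-23751208, plus strand: tcctcccgggccggcctgcagt
It had 8 and 15 reads in the tagged IPs and 1 and 0 in the untagged IPs. It had 0 in all 4 inputs, 1 in Ago2-induced cells and 0 in the other 3 libraries. With so few reads it was given no test.

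Genes for factors that make and destroy histone mRNAs lay near the values of all genes. Of 32 such genes, among them Slbp, Lsm11, Eri1 and Upf1, 21 could be tested. In tagged against untagged IPs 20 were lower (median -2.45), in untagged IPs against inputs 20 were higher (median 2.73), and in tagged IPs against inputs 0 were called (median 0.37), beside 85.8, 79.1 and 1.25% of all genes. Ptbp1, the most abundant of them, had 3.47 and 1.46 CPM in tagged IPs, 28.8 and 8.56 CPM in untagged IPs, 3.28 and 1.51 CPM in tagged inputs and 3.84 and 3.04 CPM in untagged inputs. Of 14 replication-independent histone genes, whose mRNAs are as a rule polyadenylated, 8 were tested: 8 were lower in tagged against untagged IPs (median -2.68), 5 higher in untagged IPs against inputs (median 2.02) and 0 called in tagged IPs against inputs (median -0.77). H2afx, which also makes a stem-loop mRNA, had 4.69 and 2.76 CPM in tagged IPs, 35.5 and 26.1 CPM in untagged IPs, 3.21 and 1.08 CPM in tagged inputs and 2.88 and 2.63 CPM in untagged inputs. Its change in untagged IPs over inputs was 3.48 (adjusted p = 0.00122). Of 76 ribosomal protein genes tested, 75 were lower in tagged against untagged IPs (median -2.80), 48 higher in untagged IPs against inputs (median 1.97), and 0 higher and 4 lower in tagged IPs against inputs (median -0.65).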

How the data were processed

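Small RNA of 12 mouse ESC libraries was analysed. The deposited files list each distinct read with its raw count, without normalisation, per the values; trimming, aligner and build are not given in the sources used here. Reads of 18 nt or more were matched exactly to the sense strand of GENCODE vM21 transcripts (GRCm38), with no genome, and counts were divided by the file total (CPM). Read sequences come from these files. The members, lists and tests were chosen with earlier results of these data known. The 8 replicated libraries entered 1 model per table in edgeR 4.0.16 under R 4.3.3 (quasi-likelihood F test, library totals without factors, filterByExpr, Benjamini-Hochberg at 0.05), and shares were compared by two-sided exact permutation tests (Python 3.11.15, scipy 1.17.1). The fit was tested on simulated counts. Other genes entered with reads found in no other gene.

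Alternatives used TMM, totals outside hairpins, DESeq2 1.42.0, other filters, regions and read sets, a replicate block, and each library left out. The splits by stem-loop, class, variant and position past the stem-loop were chosen after seeing the data. Genes named were the 10 most abundant, the first of each class, the 3 highest and 3 lowest called in each contrast, and the 5 highest and 5 lowest ratios of single libraries; genes of the variant, added-base and downstream reads were chosen after their values were seen. Libraries of a group varied more than sampling allows (chi-square per degree of freedom 2.18 to 348), so each was counted as 1 sample. Same-numbered libraries carry the same code in their titles, whose meaning the labels do not give, and their deviations from group means correlated by 0.0448 to 0.2648 over 4633 genes, so the replicate block is given beside results it changes. Intervals cover counting error only, since PCR copies cannot be told from molecules.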

Additional observations from a re-analysis of the deposited data

Results flagged for a closer look

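The gain of IP over input was lower in the tagged than in the untagged line by a test of the difference itself for several sets of histone reads (edgeR interaction term, all adjusted p under 0.05), beside a median difference of -2.29 on the log2 scale over all features. It was -3.445 for all histone reads, -3.951 for reads at the stem-loop end and -3.628 for H2B reads. By reads of their own the difference was -4.784 for Hist1h2bf, -4.509 for Hist1h2br, -4.308 for Hist1h3a, -4.207 for Hist1h2be, -4.159 for Hist1h2bk, -3.778 for Hist1h3c, -3.733 for Hist1h1d and -3.517 for Hist1h2bg. Hist1h4f, which the naming rule does not reach, was the other called gene, at -3.94 (adjusted p = 0.0415). These 9 of 50 histone genes stand beside 1.6% of all genes called lower. Hist1h2br had at most 2.54 CPM in any of the 8 libraries. None of these 9 genes was called with TMM scaling, with DESeq2 or with totals outside microRNA hairpins.

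Reads that hold the stem-loop motif but match no member exactly were left out of the levels and of all fits. Those of them with an added base at the 3' end entered only the counts and shares of added bases. They had a mean of 374.9 CPM in tagged IPs against 101.7 CPM in tagged inputs, and 5030 CPM in untagged IPs against 78.9 CPM in untagged inputs (n = 2 each). Exact matches were 35.5 to 55.1% of the reads with the motif.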

How the results depend on the processing

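With 2 libraries a group, depth limits genes of few reads, and many calls depended on the scaling: the median of all genes in tagged against untagged IPs was -2.49 with library totals, -0.05 with TMM, 0.0 with DESeq2 and -1.42 with totals outside microRNA hairpins. Of 271 settings of the main results other than left-out libraries, 194 kept their direction and call. The cause of the other changes was not tested.

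In tagged against untagged IPs TMM ended the calls of the merged feature (log2 change -1.22), the first 200 nt (-0.55), the body (-0.92), the last 60 nt (-1.62), the stem-loop reads (-1.36) and the reads elsewhere (-0.63). DESeq2 ended those of the merged feature (-1.36), the stem-loop reads (-1.50) and the reads elsewhere (-0.77), and totals outside hairpins that of the reads elsewhere (-2.02). The count of called genes was 2 with TMM (1 higher, 1 lower) and 4 with DESeq2 (1 higher, 3 lower). It was 3 with totals outside hairpins and 11 with each distinct sequence counted once, all lower. Histone genes tested were 50 with TMM and with totals outside hairpins, 63 with DESeq2 and 46 with distinct sequences. Of all genes, 171 were higher and 8 lower with TMM (4633 tested), and 144 and 8 with DESeq2 (14859 tested). With totals outside hairpins 31 of 5154 were lower, and with distinct sequences 1426 of 3424. In tagged IPs against inputs the merged feature was 2.52 and called with totals outside hairpins, and -0.11 with distinct sequences. The stem-loop reads lost their call with TMM (2.62), the reads elsewhere were at 1.11 with totals outside hairpins, and H4 at 0.40. The gene count was 13 with DESeq2, 5 without the filter on low counts and 0 with distinct sequences (edgeR). Of all 14859 genes, 82 were higher and 77 lower with DESeq2, and 42 higher and 39 lower without the filter. With distinct sequences 0 of 3424 were higher and 0 lower. In untagged IPs against inputs TMM ended the calls of the merged feature (2.77), the body (3.15) and the reads elsewhere (0.41) and turned the first 200 nt to -0.91; DESeq2 gave 0.63 for the reads elsewhere, and regions set by the 3' end gave 1.58 for the first 200 nt, not called. The gene count was 20 higher and 2 lower with TMM, 22 higher with DESeq2 and 12 higher with distinct sequences. Beside these stood 36 higher and 108 lower of all 4633 genes with TMM. With DESeq2 39 of 14859 genes were higher, and with distinct sequences 920 of 3424. Hist1h2br and Hist2h3c2 turned to -0.062 and -0.12 with TMM there. Between the IPs Hist1h3e, Hist1h3h and Hist1h4b turned to 0.23, 0.12 and 0.20 with TMM, and Hist1h3e and Hist1h4b to 0.085 and 0.040 with DESeq2.

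For the gain of IP over input the merged feature lost its call with TMM (-1.30), totals outside hairpins (-2.48), DESeq2 (-1.44), no filter (-3.45) and distinct sequences (-1.84). The stem-loop reads lost theirs with TMM (-1.90), totals outside hairpins (-3.00) and DESeq2 (-2.03). The body was called with a first region of 100 nt (-3.41), and the last 60 nt with that (-4.12), with a last region of 100 nt (-3.96) and with regions set by the 3' end (-3.97). The gene count was 2 with reads of 22 nt or more and 0 with TMM, DESeq2, totals outside hairpins, no filter and distinct sequences. With reads of 22 nt or more 6 of all 3799 genes were called lower.

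With the replicate block the last 60 nt were called in tagged IPs against inputs (1.89), and the reads elsewhere there were at 0.000655. The gene count with the block was 16 in tagged IPs against inputs and 44 for the gain. Of all 4633 genes, 171 were higher and 113 lower in tagged IPs against inputs, and 2817 were lower for the gain. The gain was called with the block for the first 200 nt (-2.42), the body (-3.47), the last 60 nt (-4.11) and the reads elsewhere (-2.68). The block changed no other call of the regions, of the merged feature or of the reads at the stem-loop and elsewhere.

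Among shares, counting each distinct sequence once turned the difference of tagged minus untagged IPs to -4.82 percentage points for the first 200 nt, 0.924 for the last 60 nt, 1.44 for 20 to 24 nt, 9.07 for the stem-loop end and 1.97 for the T tail, and the total level of tagged IPs minus inputs to -8.79 CPM. Leaving out reads at the stem-loop turned the first 200 nt to -1.20 and 20 to 24 nt to 4.23. Leaving out sequences that other genes hold gave 0.150 for 20 to 24 nt and, for the last 60 nt in tagged IPs minus inputs, -0.497. Reads of 22 nt or more gave -0.267 for that last value, and 0.0638, -3.18 and -4.96 for the T tail between the IPs and in tagged and untagged IPs minus inputs. Leaving out the most abundant sequence gave 0.812 for the T tail between the IPs. The ratio of Dicer-null over wildtype was 0.863 with distinct sequences and 1.12 without sequences of other genes, and no doxycycline over wildtype 1.11 with distinct sequences. With totals outside hairpins the ratios were 0.937 for Dicer-null over wildtype, 0.902 for Ago2-induced over no doxycycline and 0.848 for no doxycycline over wildtype.

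Leaving out 1 library at a time gave these ranges. Between the IPs the merged feature was -3.80 to -3.30, the first 200 nt -3.18 to -2.75, the body -3.74 to -3.10, the last 60 nt -4.23 to -3.80, the reads elsewhere -3.41 to -2.50 and the gene count 1 to 51. All 6 of these lost their call without tagged IP replicate 2, apart from 1 gene. In tagged IPs against inputs the stem-loop reads were 2.12 to 2.98, the reads elsewhere -0.37 to 0.44 and the gene count 1 to 8. In untagged IPs against inputs the first 200 nt were 1.43 to 1.81 and lost their call in all 8 cases, the reads elsewhere were 2.24 to 3.15 and the gene count 9 to 47. For the gain the merged feature was -3.71 to -3.14, the body -3.83 to -3.18, the last 60 nt -4.34 to -3.86, the stem-loop reads -4.44 to -3.58, the reads elsewhere -3.17 to -2.26 and the gene count 0 to 30. Shares of tagged minus untagged IPs were -0.1 to 3.49 for the first 200 nt, -5.21 to 0.605 for 20 to 24 nt and -2.63 to 2.36 for the T tail. Shares of tagged IPs minus inputs were -1.20 to 3.03 for the last 60 nt, -21.6 to 0.313 for a first T and -4.51 to 4.95 for the T tail, which was -3.67 to 4.01 in untagged IPs minus inputs. A lone library was assumed to vary like the other groups.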

Other observations

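Antisense reads of the histone genes were few and had another pattern. They numbered 34.1 and 35.4 CPM in tagged IPs, 18.1 and 17.6 CPM in untagged IPs, 10.4 and 6.84 CPM in tagged inputs and 11.8 and 13 CPM in untagged inputs. Per 100 sense reads that was 7.28 and 5.36 in tagged IPs and 0.312 and 0.242 in untagged IPs. Runs of only 2 kinds of base made up 81.6 and 83% of them in tagged IPs, 45.3 and 59.1% in untagged IPs, 62.6 and 66.1% in tagged inputs and 69.4 and 63.8% in untagged inputs, but 18.0% in Dicer-null, 17.5% in Ago2-induced, 12.6% in no-doxycycline and 16.8% in wildtype cells. These runs match simple repeats in the Hist1h1d and Hist1h2bc transcripts and are not unique to these genes. The other antisense reads had 6.27 and 6.01 CPM in tagged IPs, 9.88 and 7.19 CPM in untagged IPs, 3.88 and 2.31 CPM in tagged inputs and 3.60 and 4.70 CPM in untagged inputs.

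In the ligated libraries the most abundant member by its own reads was not an H2B gene. Hist4h4 had 23.8 CPM in Dicer-null, 22.1 CPM in Ago2-induced, 22.1 CPM in no-doxycycline and 27.4 CPM in wildtype cells, while Hist1h2bg had 1.99, 1.76, 1.92 and 1.89 CPM in the same order. Of the Hist4h4 reads, 1739 of 1875, 554 of 614, 511 of 587 and 831 of 883 started past the stem-loop, and without them Hist4h4 had 1.73, 2.16, 2.86 and 1.61 CPM, beside 1.74, 1.62, 1.66 and 1.52 CPM for Hist1h2bg.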
